A study of Homo sapiens with 6 samples.

Results

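The genes described here encode the NF-κB transcription factor subunits and the inhibitors that NF-κB itself induces. They and the gene lists below were chosen by name, with earlier results of these data known. The members are the subunits NFKB1, NFKB2, REL, RELA and RELB, and the inhibitors and nuclear IκB proteins NFKBIA, NFKBIE, NFKBIZ, TNFAIP3 and BCL3. All 10 were found in the count table, which lists 33981 genes. The counts came from THP-1, a monocytic cell line established from acute myeloid leukaemia (AML), infected on retronectin with a lentivirus carrying either a scrambled shRNA (3 samples, C1, C3 and C4) or an shRNA against NFIC (3 samples, N1, N2 and N3). NFIC is a transcription factor of the nuclear factor I (NFI) family. The cells were sorted for GFP 4 days after infection and their RNA was sequenced in bulk, with no stimulus of NF-κB given in the labels. In the study's methods the hairpins were driven by a U6 promoter in a vector that also encodes GFP and puromycin resistance, and there the control vector for this sequencing is called GFP only. The labels do not say which NFIC hairpin was used. The paper names sh494 in a legend on the THP-1 expression data, and a hairpin's effect on other transcripts cannot be told apart from that of losing NFIC. The labels do not say whether the samples of a group were separate infections, so p-values measure only the spread between these samples, which may be technical.

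NF-κB proteins act as dimers. RELA, REL and RELB carry a transactivation domain, whereas the precursors encoded by NFKB1 and NFKB2 are processed to the DNA-binding subunits p50 and p52. In resting cells the IκB proteins hold dimers in the cytoplasm until the IκB kinase (IKK) complex marks them for degradation. NF-κB then induces several of its own inhibitors, above all NFKBIA and TNFAIP3, which makes the response of myeloid cells to microbes and cytokines brief. BCL3 and the NFKBIZ product are atypical IκB proteins that work in the nucleus and can raise or lower transcription from NF-κB sites.

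The libraries held between 20369543 and 24809720 counts, so that 3 counts, taken as the smallest detectable amount, corresponded to between 0.121 and 0.147 CPM. CPM are the counts of a gene relative to the library total. Those of single genes were scaled by the TMM factors of edgeR. The smallest amount just given and the sums over several genes were taken without these factors. NFIC, the targeted gene, measured 42.1, 41.4 and 42.2 CPM in C1, C3 and C4 and 19.4, 22.3 and 21.4 CPM in N1, N2 and N3. It fell to 50.2% of the scrambled level (edgeR quasi-likelihood test, adjusted p = 3.73e-09). Of 10 monocytic markers 4 rose and 4 fell, while 29.6% of all genes tested rose and 30.3% fell. The summed level of these markers was 1411 to 1558 CPM in the scrambled and 1689 to 1799 CPM in the NFIC shRNA samples. LYZ, the highest of these markers, weighed most in that sum and rose from 572 ± 69.0 to 940 ± 104 CPM (SD, n = 3). CD68 and CSF1R, the next highest in the scrambled samples, fell from 261 ± 8.34 to 130 ± 8.56 CPM and from 219 ± 9.29 to 146 ± 16.1 CPM. Of 7 granulocytic markers tested 6 fell and 1 rose, so all were called, against 59.9% of all genes tested. Their sum went from 4133 to 4759 CPM down to 2480 to 2622 CPM. ELANE and AZU1, the highest of them, weighed most in it. They fell from 2130 ± 230 to 1488 ± 46.9 CPM and from 1105 ± 11.5 to 372 ± 61.1 CPM (SD, n = 3). B cell markers summed to 23.0 to 24.9 against 16.5 to 18.1 CPM and T cell markers to 2.53 to 3.28 against 0.740 to 0.982 CPM, while HBB, HBA1 and ALAS2 of the erythroid list had at most 3 counts in every library, as did the T cell gene CD3D. The part of these marker shifts in the results given here was not tested. In bulk RNA, fewer cells of a type and less RNA per cell cannot be told apart. C3 and N3 lay apart from the other 4 libraries on the second principal component (-18.0 and -20.5 against 4.63 to 15.8), and without these 2 libraries the counts of members that rose and fell were as given next.

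With the NFIC shRNA 6 of the 10 members rose, 2 fell and 2 did not pass the test. TNFAIP3 rose 1.59-fold, BCL3 1.47-fold, NFKBIZ 1.36-fold, RELA 1.25-fold, NFKBIE 1.24-fold and REL 1.19-fold. NFKBIA fell to 72.2% and NFKB1 to 77.8% of the scrambled level. A gene was called at p under 0.05 after Benjamini-Hochberg adjustment of edgeR's quasi-likelihood p over the 19182 genes tested. Of all those genes 29.6% rose, 30.3% fell and 59.9% changed in either direction, against which the members' counts are to be read. The median log2 fold change was 0.28 over the 10 members and -0.011 over all genes tested. The members' changes were small. When glmTreat of edgeR asked for log2 changes beyond 0.58, 0 of 10 passed after adjustment and 0 at an unadjusted p under 0.05, with the lowest adjusted p, 0.338, for TNFAIP3. Taken gene by gene, 3 samples against 3 allow no exact permutation p below 0.1. How many of all genes tested had no overlap between the groups was not counted. A lack of overlap given below therefore does not set a gene or ratio apart.

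**Figure D1:**
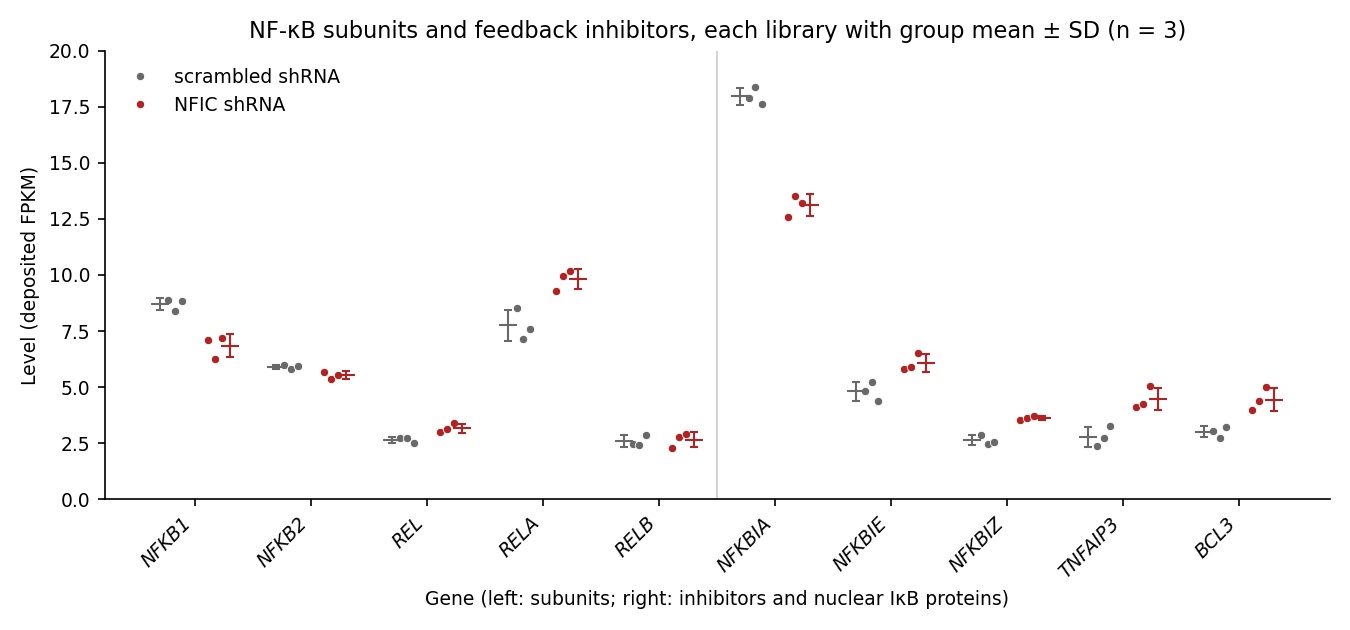
Level of each member in every library, in the FPKM the authors deposited (vertical axis), with grey points for the 3 scrambled and red points for the 3 NFIC shRNA libraries and bars for the group mean ± SD. NFKBIA stood highest in both groups, at 17.6 to 18.4 FPKM in the scrambled and 12.6 to 13.5 FPKM in the NFIC shRNA libraries. Only the points of RELB overlapped between groups, but how often all genes tested overlapped was not counted. Separate points therefore do not set a member apart. Those of NFKB2 were separate as well, and it was not called (edgeR adjusted p = 0.186).

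Several member genes carry NF-κB sites of their own, so the DNA before their starts was read from RefSeq (GRCh38.p14). RefSeq windows were present for 8 of the 10 members, 13 windows in all, and the 250 bases before each start were searched on both strands. The consensus decamer for NF-κB, the κB site (GGG, a purine, any 2 bases, 2 pyrimidines and CC), occurred in 8 of the 13 windows, belonging to 6 members (NFKB1, NFKB2, REL, NFKBIA, NFKBIZ and TNFAIP3). It occurred in 9.96% of the 35116 RefSeq windows of this length. These 6 members included both genes that fell, 3 that rose and 1 that was not called. The short NFI motif TTGGCA occurred in 0 of the 13 windows and in 10.8% of all windows, and the full palindrome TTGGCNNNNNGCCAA, which can hold the short motif, in 0 of 13 and in 0.0285% of all. The sequences are shown for NFKBIA and NFKB1, which fell, and for TNFAIP3, the member with the largest fold change, on the strand of the gene, with the κB matches in capitals.
NFKBIA, chr14:35404750-35404999, minus strand: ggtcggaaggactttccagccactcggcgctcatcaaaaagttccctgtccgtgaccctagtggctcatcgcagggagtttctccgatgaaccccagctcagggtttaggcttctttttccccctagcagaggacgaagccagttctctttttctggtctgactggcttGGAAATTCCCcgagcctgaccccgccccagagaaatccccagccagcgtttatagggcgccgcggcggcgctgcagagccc
NFKB1, chr4:102501109-102501329, plus strand: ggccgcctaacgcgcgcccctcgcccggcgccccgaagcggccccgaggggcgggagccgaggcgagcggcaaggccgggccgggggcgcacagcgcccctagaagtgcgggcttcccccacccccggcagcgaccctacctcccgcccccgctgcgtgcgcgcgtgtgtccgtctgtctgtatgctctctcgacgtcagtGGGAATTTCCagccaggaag
TNFAIP3, chr6:137867009-137867213, plus strand: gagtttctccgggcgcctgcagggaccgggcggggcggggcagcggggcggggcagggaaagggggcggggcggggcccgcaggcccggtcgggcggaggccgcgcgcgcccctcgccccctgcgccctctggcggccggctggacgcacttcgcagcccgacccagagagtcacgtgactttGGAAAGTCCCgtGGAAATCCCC
The match in NFKBIA lay 81 to 72 bases before its RefSeq start, that in NFKB1 49 to 40 bases before, and the neighbouring pair in TNFAIP3 67 to 58 and 55 to 46 bases before. The runs printed for NFKB1 and TNFAIP3 stop where the GENCODE gene begins. The match before the first NFKBIZ start, GGGAATTTCC at chr3:101827767-101827776, had the same letters as the one in NFKB1. REL carried GGGAAATTCCC, which holds a match on each strand, at chr2:60881527-60881537. NFKB2 carried 4 stretches with a κB match on at least 1 strand in the windows of its downstream starts, among them GGGGCTTTCC and GGGACTTTCC. Genes whose windows hold these letters therefore moved in both directions. A match describes the letters only and does not show binding in these cells.

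Among the subunits, the transcript of the p50 precursor fell while those of the transactivating subunits RELA and REL rose. NFKB1 (chr4:102501330-102617302) measured 57.3, 54.1 and 56.8 CPM in C1, C3 and C4 and 45.6, 40.0 and 45.4 CPM in N1, N2 and N3. Every NFIC shRNA library lay below every scrambled library, and the log2 fold change was -0.36 (95% CI -0.50 to -0.22, edgeR adjusted p = 1.42e-04).

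RELA (chr11:65653599-65663090), which encodes p65, measured 47.2, 39.5 and 41.8 CPM in the scrambled and 51.1, 54.5 and 55.2 CPM in the NFIC shRNA libraries. The groups did not overlap, and C1 was the scrambled library nearest to the knockdown. RELA rose by 0.33 on the log2 scale (95% CI 0.18 to 0.47, edgeR adjusted p = 7.32e-04). RELA-DT on the opposite strand overlaps its start and had 8 to 19 counts. REL (chr2:60881491-60931612), which encodes c-Rel, measured 36.4, 36.1 and 33.1 CPM against 39.7, 41.1 and 44.5 CPM. Here too the groups were apart, with N1 closest to the scrambled samples. Its log2 fold change of 0.25 (95% CI 0.10 to 0.39) was the smallest of the called members (edgeR adjusted p = 0.00562). The annotated interval of REL contains AC010733.2 (chr2:60925909-60931610) on the same strand, which was counted separately at 423 to 475 counts in the scrambled and 483 to 594 in the NFIC shRNA libraries, so reads of these genes may have been split.

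The subunits of the noncanonical arm, p100 and RelB, did not pass the test. NFKB2 (chr10:102394110-102402524) measured 28.6, 27.8 and 28.2 CPM in the scrambled and 27.0, 25.3 and 26.0 CPM in the NFIC shRNA libraries. The groups did not overlap, yet the log2 fold change of -0.11 (95% CI -0.26 to 0.038) was not called (edgeR adjusted p = 0.186). It was called lower with upper-quartile factors (-0.17, adjusted p = 0.0488). RELB (chr19:45001461-45038192) measured 7.54, 7.31 and 8.78 CPM against 6.99, 8.36 and 8.75 CPM. The lowest value belonged to N1 and the highest to C4, so the groups overlapped, and the log2 fold change was 0.034 (95% CI -0.23 to 0.30, edgeR adjusted p = 0.830). As a fold, the interval runs from 0.852 to 1.23.

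**Figure D2:**
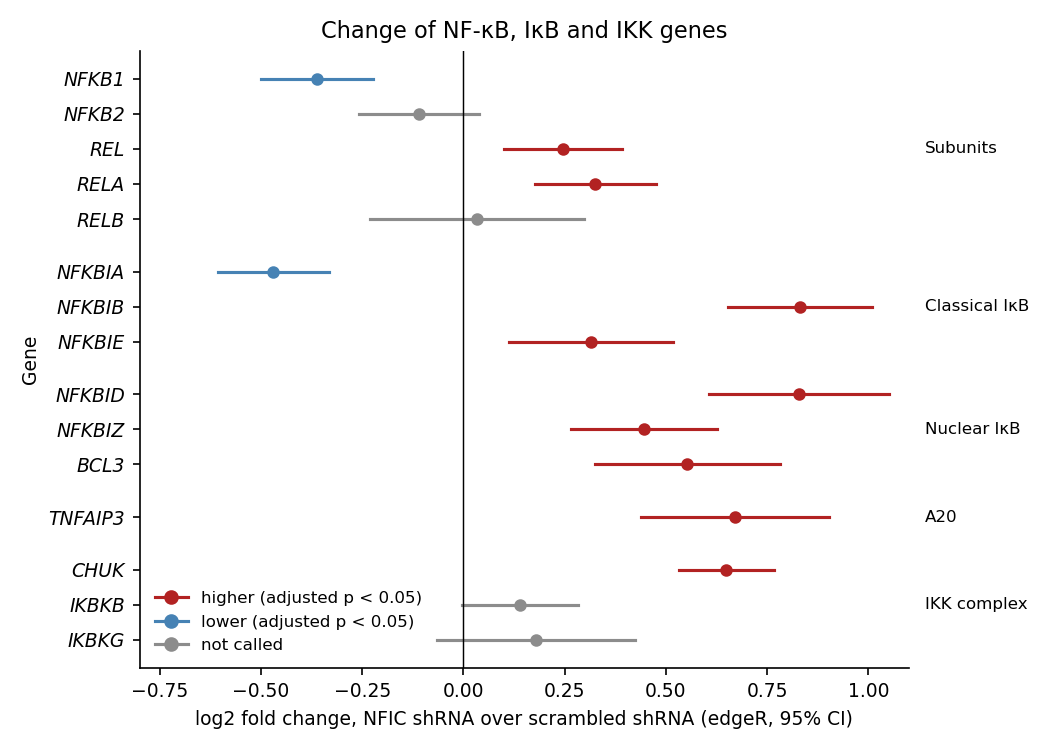
The log2 fold change of NFIC shRNA over scrambled shRNA (horizontal axis, points, with bars for the 95% CI from edgeR, n = 3 per group) for the members, both other IκB genes and the IKK complex. NFKB1 and NFKBIA lay to the left of 0 and were called, whereas NFKB2, RELB, IKBKB and IKBKG had intervals that crossed 0.

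Compared per length, the make-up of the subunit transcripts shifted from NFKB1 towards RELA. Levels between genes were compared in the deposited FPKM, which divide by gene length. Of the summed FPKM of the 5 subunits, NFKB1 made up 31.6% ± 0.435 in the scrambled and 24.5% ± 1.57 in the NFIC shRNA samples (SD, n = 3). RELA made up 28.1% ± 1.56 and then 35.0% ± 1.16. In the scrambled samples NFKB1 (8.41 to 8.88 FPKM) and RELA (7.15 to 8.52 FPKM) overlapped, while in the knockdown RELA (9.30 to 10.2 FPKM) lay above NFKB1 (6.26 to 7.18 FPKM) in every library. The share of REL went from 9.59% to 11.3%, that of NFKB2 from 21.4% to 19.8% and that of RELB from 9.36% to 9.49%. Reads split between REL and AC010733.2, as given above, may have lowered the REL share. Because shares sum to a whole, a fall of 1 subunit raises the others. In scrambled samples the summed CPM of the 5 subunits, taken without TMM factors, ranged from 163 to 176, against 171 to 179 in the knockdown, so these ranges overlapped.

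The classical IκB genes, whose products keep NF-κB dimers in the cytoplasm, moved in opposite directions. NFKBIA (chr14:35401079-35404749), which encodes IκBα, measured 43.1, 44.2 and 42.2 CPM in the scrambled and 30.1, 32.2 and 31.2 CPM in the NFIC shRNA libraries. The libraries of each group lay close together and the groups did not overlap. The log2 fold change was -0.47 (95% CI -0.61 to -0.33, edgeR adjusted p = 7.24e-06), the lowest adjusted p of the 10 members.

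NFKBIE (chr6:44258166-44265788), which encodes IκBε, measured 12.7, 13.7 and 11.4 CPM against 15.0, 15.2 and 16.8 CPM. No library overlapped, with C3 and N1 the nearest pair. NFKBIE rose by 0.31 on the log2 scale (95% CI 0.11 to 0.52, edgeR adjusted p = 0.00925). This call rested on C4, the lowest library: without it the log2 fold change was 0.25 and the adjusted p 0.0635.

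NFKBIB, which encodes IκBβ and is not among the 10 members, rose more than either. It measured 16.5, 16.0 and 15.9 CPM in the scrambled and 27.2, 27.1 and 31.7 CPM in the NFIC shRNA libraries. Its log2 fold change was 0.83 (95% CI 0.65 to 1.01, edgeR adjusted p = 1.93e-07). Per length, NFKBIA made up 60.6% ± 0.531 of the summed FPKM of NFKBIA, NFKBIB and NFKBIE in the scrambled and 41.7% ± 2.10 in the NFIC shRNA samples (SD, n = 3). NFKBIB went from 23.1% ± 0.663 to 39.1% ± 1.81 and NFKBIE from 16.2% ± 0.961 to 19.2% ± 0.301. In N3 the share of NFKBIB, 41.0%, exceeded that of NFKBIA, 39.5%.

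**Figure D3:**
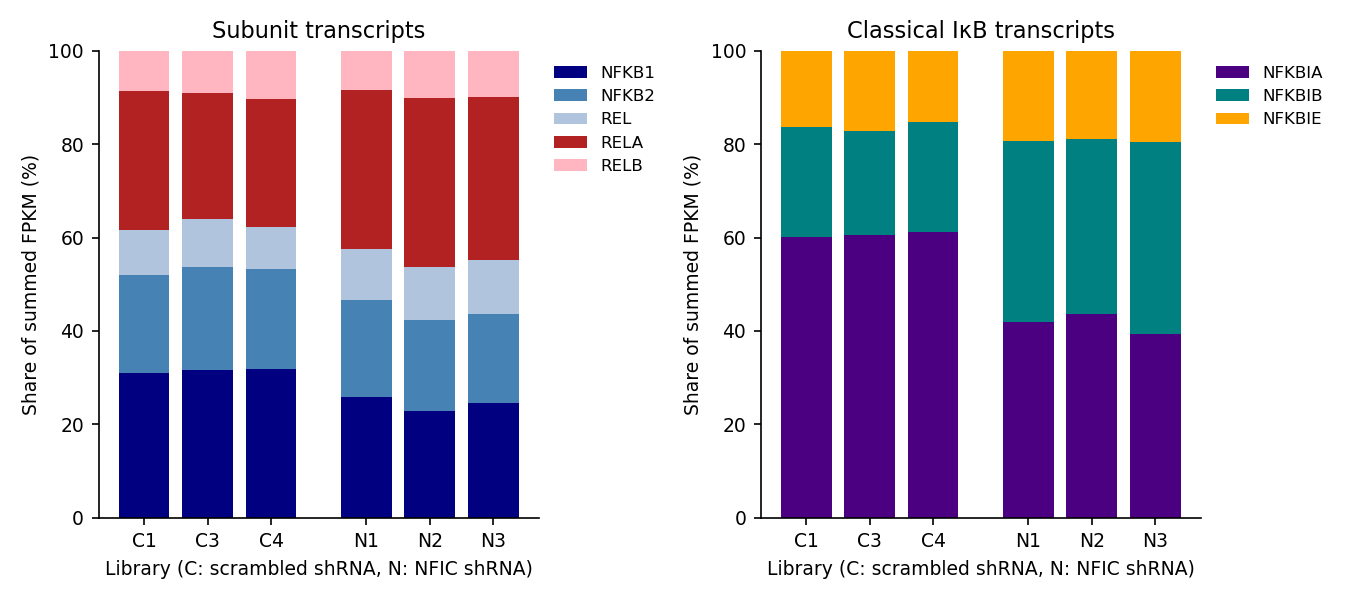
Share of the summed deposited FPKM (vertical axis, in percent) held by each NF-κB subunit (left) and each classical IκB gene (right) in every library. From scrambled (C) to NFIC shRNA (N) libraries the NFKB1 share went from 31.6% to 24.5% on average and the RELA share from 28.1% to 35.0%, and the NFKBIA share from 60.6% to 41.7%.

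The genes of the nuclear IκB proteins rose together. NFKBIZ (chr3:101827991-101861022), whose product IκBζ is needed for a set of secondary response genes in myeloid cells, measured 17.2, 14.7 and 15.3 CPM in the scrambled and 21.1, 21.4 and 21.7 CPM in the NFIC shRNA libraries. The knockdown libraries were close to each other and all above the scrambled ones, a log2 fold change of 0.45 (95% CI 0.27 to 0.63, edgeR adjusted p = 2.27e-04). NFKBIZ overlaps NXPE3 (chr3:101779177-101843743) on the same strand, which had 1968 to 2241 counts in the scrambled and 2915 to 3086 in the NFIC shRNA libraries, and reads shared by both may have been left out or split. Whether the rise of NXPE3 touched the NFKBIZ counts was not tested.

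BCL3 (chr19:44747705-44760044), whose product binds p50 and p52 dimers, measured 9.62, 8.57 and 10.0 CPM against 12.4, 13.5 and 15.3 CPM. Again no library overlapped, and N3 was the highest. BCL3 rose by 0.55 on the log2 scale (95% CI 0.32 to 0.78, edgeR adjusted p = 2.86e-04). NFKBID, another nuclear IκB gene outside the members, measured 8.32, 6.95 and 7.24 CPM against 13.1, 13.4 and 13.3 CPM. With a log2 fold change of 0.83 it changed by about as much as NFKBIB (95% CI 0.61 to 1.05, edgeR adjusted p = 2.94e-06). NFKBIB and NFKBID, unlike the 10 members, also passed glmTreat beyond 0.58 (edgeR, adjusted p = 0.00828 and 0.0275).

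TNFAIP3 (chr6:137867214-137883314) encodes A20, the ubiquitin-editing enzyme that shuts off signalling to IKK. It measured 12.1, 13.8 and 16.6 CPM in C1, C3 and C4 and 20.9, 21.4 and 25.2 CPM in N1, N2 and N3. Although the libraries spread within each group, the highest scrambled library lay below the lowest knockdown library. The log2 fold change was 0.67 (95% CI 0.44 to 0.90, edgeR adjusted p = 5.57e-05). Even so, 25.4% of all genes tested had a larger absolute change. The opposite-strand transcript WAKMAR2, which overlaps the TNFAIP3 start, had 9 to 31 counts, and reads of antisense pairs cannot be told apart without strand. NFKBIA and TNFAIP3, both textbook NF-κB feedback genes with κB matches close to their starts, thus moved in opposite directions.

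In scrambled cells NFKBIA had the highest level per length of the 10 members, at 17.97 ± 0.385 FPKM (SD, n = 3). NFKB1 and RELA followed at 8.71 ± 0.263 and 7.75 ± 0.703 FPKM, and their samples overlapped. NFKB2 (5.90 FPKM) and NFKBIE (4.82 FPKM) came next, each apart from its neighbours. BCL3, TNFAIP3, REL, NFKBIZ and RELB lay between 2.58 and 3.01 FPKM, and each overlapped the next. The place of REL depends on its length of 13170 bases, since in CPM it stood at 35.2, above NFKB2 at 28.2. Reads left out or split with overlapping genes, as given above for REL and NFKBIZ, could also lower these levels. In the NFIC shRNA samples the order was NFKBIA (13.1 FPKM), RELA (9.81), NFKB1 (6.85), NFKBIE (6.07), NFKB2 (5.53), TNFAIP3 (4.47), BCL3 (4.44), NFKBIZ (3.62), REL (3.17) and RELB (2.66). There NFKB1 overlapped NFKBIE and TNFAIP3 overlapped BCL3, while the other neighbours were apart. TNFAIP3, BCL3 and NFKBIZ overlapped RELB in the scrambled samples and lay above it in every NFIC shRNA library.

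Ratios to RELA within a library do not depend on the scaling between libraries. RELA itself rose by 0.33 on the log2 scale, so a lower ratio need not mean a fall of the other gene. The FPKM ratio of NFKB1 to RELA was 1.04, 1.18 and 1.17 in C1, C3 and C4 and 0.765, 0.630 and 0.706 in N1, N2 and N3. The ratio of NFKBIA to RELA was 2.10, 2.57 and 2.33 against 1.36, 1.36 and 1.30. Both ratios were lower in every NFIC shRNA library, by 0.69 and 0.80 on the log2 scale. NFKB2 and RELB, not called on their own, were also lower relative to RELA (log2 differences of -0.44 and -0.30), and NFKBIZ and BCL3 higher (0.12 and 0.22), all without overlap of the groups. For each of these 6 ratios the exact permutation test gave p = 0.1, the smallest it can give, and an adjusted p of 0.15 over the 9 ratios. REL, NFKBIE and TNFAIP3 overlapped between groups in their ratio to RELA (log2 differences of -0.082, -0.0085 and 0.35, with exact permutation p of 0.5, 1 and 0.2).

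Of the IKK complex, the gene of 1 catalytic subunit rose. CHUK, which encodes IKKα, measured 47.7, 48.0 and 45.6 CPM in the scrambled and 73.7, 73.7 and 74.2 CPM in the NFIC shRNA libraries (log2 fold change 0.65, edgeR adjusted p = 2.88e-08). IKBKB, which encodes IKKβ, measured 50.5 ± 4.72 and 55.6 ± 0.889 CPM, and IKBKG, which encodes the scaffold NEMO, 7.73 ± 0.631 and 8.75 ± 0.596 CPM (SD, n = 3). Both overlapped between groups and were not called (edgeR adjusted p = 0.0862 and 0.192). IKBKB was called higher without C1 (edgeR adjusted p = 0.0236), and also with the numbers in the sample names as a block. Over the 8 genes of the IKK complex and IKK-related kinases 3 rose and 2 fell, with a median log2 fold change of 0.16. The share called, 62.5%, was close to the 59.9% of all genes tested. The other risers were TBK1 (0.51) and its adaptor TANK (0.32), whereas IKBKE (-0.31) and TBKBP1 (-0.35) fell.

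The 23 adaptors and ubiquitin ligases upstream of IKK were split, with 7 higher, 9 lower and a median log2 fold change of -0.086, and 69.6% were called against 59.9% of all genes. RIPK1 (0.42), RNF31 (0.33), the catalytic subunit of the linear ubiquitin ligase, and MAP3K7 (0.32), which encodes the kinase TAK1, rose. RIPK2 (-0.86), TRAF5 (-0.73) and IRAK1 (-0.62) fell, IRAK1 from 106 ± 2.46 to 69.2 ± 6.20 CPM (SD, n = 3). Without C4, 4 rather than 7 of these genes were called higher. IRAK4, a kinase of the same arm, was not analysed here. In the noncanonical arm 2 of 9 genes rose and 1 fell, with a median of 0.033, and 33.3% were called, below the 59.9% of all genes. The receptor gene CD40 went from 5.80 ± 0.459 to 9.19 ± 0.398 CPM (log2 fold change 0.67) and TRAF3, which restrains the kinase NIK, from 44.7 ± 2.40 to 57.5 ± 0.362 CPM (0.36). MAP3K14, which encodes NIK, measured 3.78 ± 0.277 and 3.01 ± 0.457 CPM, overlapped between groups and was not called (edgeR adjusted p = 0.0959). The gene that fell was BIRC3, named here after its values were seen, at 11 to 26 counts in the scrambled and 6 to 9 in the NFIC shRNA libraries. It was not called without C1, N1, N2 or N3, each left out in turn.

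Among 13 other negative regulators of NF-κB signalling 10 rose and 1 fell, with a median log2 fold change of 0.35, and 84.6% were called against 59.9% of all genes tested. As with the other lists, that comparison is not independent of these data, whose earlier results were known when the genes were chosen. CYLD, a deubiquitinase, measured 41.8, 36.8 and 37.9 CPM in the scrambled and 89.5, 83.3 and 95.1 CPM in the NFIC shRNA libraries. RNF11 and TAX1BP1, partners of A20 in its ubiquitin-editing complex, went from 70.3 ± 4.43 to 156 ± 6.37 CPM and from 198 ± 5.18 to 289 ± 16.7 CPM (SD, n = 3). The log2 fold changes of CYLD, RNF11 and TAX1BP1 were 1.20, 1.15 and 0.55 (edgeR adjusted p = 1.63e-10, 5.77e-11 and 1.06e-07). TNIP1, which encodes the A20-binding protein ABIN1, went the other way, from 66.7, 66.0 and 69.6 CPM to 32.6, 33.0 and 33.1 CPM. Its log2 fold change was -1.03 (edgeR adjusted p = 2.32e-10). Its paralogue TNIP2, which encodes another A20-binding protein, rose (log2 fold change 0.35, edgeR adjusted p = 1.22e-04), ITCH, a ligase that works with A20, was not called (0.067), and TNIP3 was below the filter on low counts. TNIP2, TNIP3 and ITCH were named after their values were seen. Genes of A20 and its partners were thus found in both directions.

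**Figure D4:**
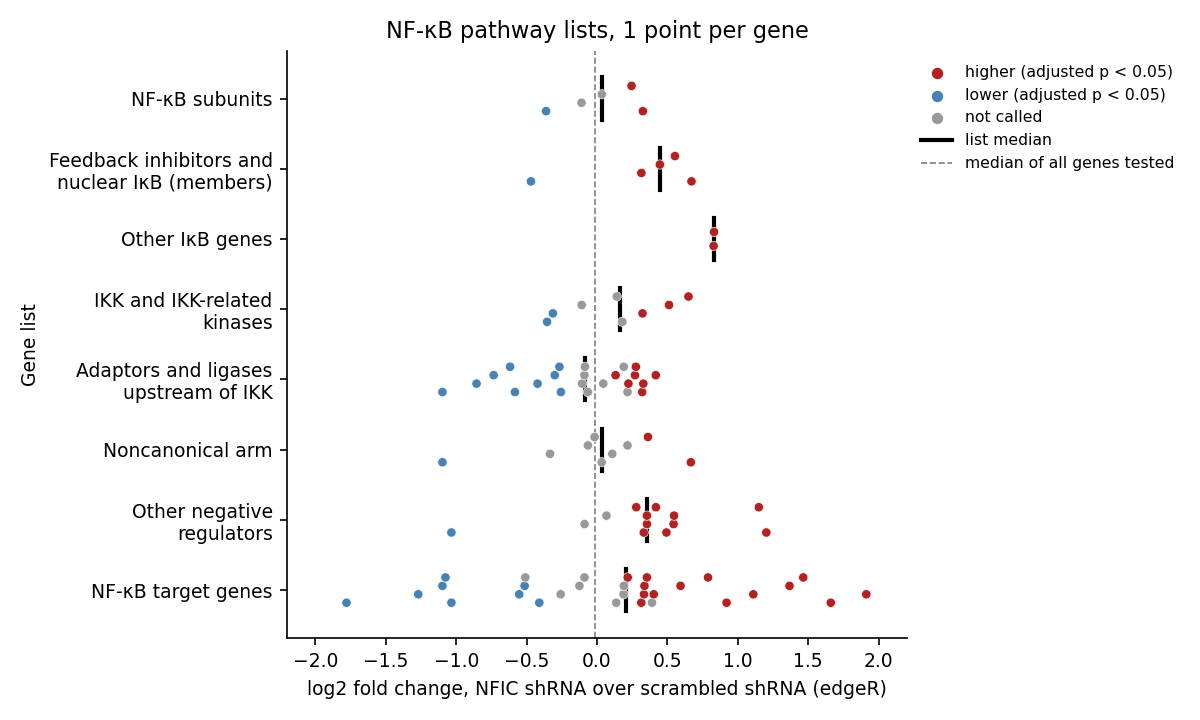
The log2 fold change of NFIC shRNA over scrambled shRNA (horizontal axis) of every tested gene of 8 NF-κB pathway lists, with 1 point per gene coloured by its edgeR call, a black bar at the list median and a dashed line at the median of all genes tested (-0.011). The list medians ranged from -0.086 for the adaptors to 0.83 for the other IκB genes, and BIRC3, TNIP1, TRAF2 and BIRC2 stand on more than 1 list.

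The list of NF-κB target genes other than the members held 40 genes, of which 30 were tested. Of these 14 rose, 8 fell and 8 were not called, with a median log2 fold change of 0.20. ICAM1, the adhesion molecule, measured 15.3, 8.61 and 13.5 CPM in the scrambled and 37.6, 37.9 and 42.0 CPM in the NFIC shRNA libraries, a rise of 3.16-fold. The transcription factor gene IRF1 rose from 28.7 ± 0.598 to 61.9 ± 1.16 CPM and TNFAIP8, an inhibitor of apoptosis, from 63.1 ± 1.45 to 119 ± 7.08 CPM (SD, n = 3). The chemokine gene CCL5 fell from 56.7, 67.4 and 63.8 CPM to 16.7, 17.2 and 20.8 CPM, or 29.1% of the scrambled level. CCL20 fell from 5.37 ± 0.853 to 2.23 ± 0.330 CPM and the protease gene MMP9 from 10.7 ± 1.08 to 5.06 ± 0.910 CPM. These 6 genes had edgeR adjusted p between 7.33e-11 and 8.76e-06. Of the 10 genes not tested, 8 were below the filter on low counts, SOD2 appears under 2 identifiers, and CSF2 was not analysed here. Target genes thus moved in both directions, as did the members, and 73.3% of those tested were called against 59.9% of all genes.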

How the data were processed

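RNA was measured in 3 THP-1 samples per group, scrambled or NFIC shRNA. The authors, as their methods state, trimmed reads with Trim Galore, aligned them with STAR (GRCh38) and used featureCounts with Ensembl release 96 to assign counts to transcripts. The deposited raw counts are per gene identifier. Whether marked duplicates and strand entered the counting is not given in the sources used here. The authors also deposited a normalized signal, each count divided by 1 DESeq2 size factor per sample. The deposited FPKM are these normalized counts divided by the authors' gene length in kilobases and 1 constant for all samples. Their DESeq2 fold changes and p-values were not used.

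The counts were analysed with edgeR 4.0.16 (R 4.3.3): filterByExpr, TMM, robust quasi-likelihood fit, no block, Benjamini-Hochberg adjustment over 19182 genes, threshold 0.05. The standard error was the log2 fold change divided by the square root of F, and 95% CIs used its t distribution. Ratios of FPKM were compared by exact two-sided permutation tests. The fit was tested on simulated counts with 200 changed genes, far fewer than the 11486 called in these data. That simulation therefore cannot check the scaling or the error rate where most genes change. Replicate libraries differed beyond sampling noise (chi-square per degree of freedom 1.98 to 7.84). Named in full were the 10 members, and besides them NFIC, NFKBIB, NFKBID, CHUK, IKBKB, IKBKG, MAP3K14 and, per list, up to 3 genes in each direction with the largest change among non-overlapping genes called at a mean log2 CPM of at least 1. The members and lists were chosen with earlier results of these data known. Alternatives were other scalings, DESeq2 1.42.0, other filters and thresholds, protein-coding genes only, left-out samples, 2 replicate blocks and, chosen after seeing the data, leaving out C3 and N3. Gene positions are those of GENCODE 44 (GRCh38). The promoter sequences are RefSeq's.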

Additional observations from a re-analysis of the deposited data

How the results depend on the processing

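The counts of members that rose (6) and fell (2) both became 0 in the test against a log2 fold change of 0.58, which asks for a larger change, while the genes called among all tested went from 11486 to 2886. With samples left out in turn the members that rose numbered 5 to 6 and those that fell 2 to 2. The RELB log2 fold change, not called, ranged from -0.027 to 0.13 over the left-out samples and changed sign with upper-quartile factors (-0.023), without scrambled replicate 1 (-0.0024), without scrambled replicate 2 (-0.024), without NFIC shRNA replicate 3 (-0.027) and without C3 and N3 (-0.085); its adjusted p was never below 0.451. The calls of NFKB2, NFKBIE and IKBKB changed as given beside them, and no other member's call changed outside the 0.58 test. Among the lists, 4 noncanonical genes rose with the block by name numbers, and BIRC3 was not called with DESeq2, a minimum of 10 counts, the replicate block or an adjusted p under 0.01. Correlations of deviations gave no sign that the label numbers pair the samples (-0.0862 to 0.0563). Deviations from means of only 3 libraries cannot exclude pairing, and nothing in the labels says that a number marks a shared infection. With the replicate block by label number, 6 members rose, 2 fell and 10983 genes were called. Pairing by the numbers in the sample names gave correlations of 0.0563 for C1 with N1 and 0.145 for C3 with N3. C4 and N2 share no number and were put together as the remaining pair, with a correlation of 0.0267. With that block 12099 genes were called. The order of the members' levels was the same in TPM. At this depth RELB and MAP3K14, with under 10 CPM, had standard errors of 0.125 and 0.168.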
